A study of Mus musculus with 12 samples.

Results

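The genes described here are 8 growth factor receptor tyrosine kinases, Pdgfra, Pdgfrb, Egfr, Fgfr1, Fgfr2, Kit, Met and Igf1r. They were taken by their gene symbols, and all 8 were found among the 20895 protein-coding genes with both an RNA level and mm10 coordinates. Their RNA was read from 2 RNA-seq libraries, one of mouse embryonic stem cells (mESCs, line E14TG2a) and one of NIH3T3 cells, an established line of mouse embryonic fibroblasts. Their chromatin was read from 7 ChIP-seq peak lists, each from a single run. The mESC lists were of Ctr9, a core subunit of the Paf1 complex that travels with elongating RNA polymerase II, of the histone mark H3K27ac, which marks active promoters and enhancers, of the pausing factor NELFA, and of RNA polymerase II phosphorylated on serine 5 (RNAPII Ser5p) or serine 2 (RNAPII Ser2p). The NIH3T3 lists were of Ctr9 and H3K27ac. Ctr9 and NELFA were pulled down through a GFP tag, which for Ctr9 was knocked in at the endogenous gene. The Ctr9-GFP cells were a sorted pool and not a single clone. By the paper's account, RNAPII Ser5p was also read in the NELFA-tagged mESCs. Both lines were grown in the same serum medium with leukaemia inhibitory factor, so serum growth factors were present in every group. The 3 input libraries were not used here.

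A receptor tyrosine kinase spans the cell membrane, binds a growth factor outside the cell, pairs with a second receptor and phosphorylates tyrosines on its own tail, to which adaptor proteins bind and start the Ras-MAPK and PI3K pathways. Pdgfra and Pdgfrb, the platelet-derived growth factor receptors, are known from mesenchymal cells such as fibroblasts. Met is the receptor of hepatocyte growth factor, Kit that of stem cell factor, Egfr that of epidermal growth factor and its relatives, and Igf1r that of the insulin-like growth factors. Fgfr1 and Fgfr2 bind fibroblast growth factors, and alternative splicing of their extracellular immunoglobulin-like (Ig) loops sets which of these they bind. In mESCs, signalling by fibroblast growth factors is known to prime the cells for differentiation, and in the blastocyst Pdgfra is a known marker of the primitive endoderm.

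The cell lines carried the marker RNAs of their labels. All 5 pluripotency markers were between 211 and 1402 TPM (kallisto's relative level of a transcript, corrected for how long each transcript is and how deep each library) in mESCs and at most 0.511 TPM in NIH3T3 cells. All 7 fibroblast markers were at 14.8 TPM or more in NIH3T3 cells, and 3 of them were above 1 TPM in mESCs, Fn1 at 75.7, Thy1 at 5.69 and Col5a1 at 2.38 TPM. The libraries held 26400407 estimated counts for mESCs and 28849497 for NIH3T3 cells. With 1 library per cell line there was no replicate, so differences between the lines carry no test, and the intervals below cover counting error only. The lists held from 1675 to 44748 peaks and their read depth is unknown, so a gene without a peak had none called and was not shown to be free of the factor.

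Of the 8 receptors 4 were called higher in NIH3T3 cells and 1 in mESCs. A gene's level is that of its highest transcript, and a gene was called where log2(TPM + 1) differed by at least 2. This limit is a 4-fold difference in TPM + 1, and the added 1 shrinks the differences of genes with low TPM. Pdgfra, Pdgfrb, Met and Igf1r were called higher in NIH3T3 cells, 4 of 8 members against 5.1% of all genes. Kit was called higher in mESCs, 1 of 8 against 5.46%. Egfr, Fgfr1 and Fgfr2 lay within this limit. As plain ratios of estimated counts scaled to library size, Egfr and Fgfr2 were past 4-fold, at 9.36 and 25.2. The median log2 difference (NIH3T3 minus mESC) was 1.88 over the 8 members and 0 over all genes. Summed over the 8 genes, the highest transcripts gave 22.7 TPM in mESCs and 170.5 TPM in NIH3T3 cells, and all transcripts together gave 58.4 and 258 TPM.

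Pdgfra, on chr5:75151322-75198206, stood at 0.31 TPM in mESCs and 49.1 TPM in NIH3T3 cells. By highest transcript this was the top level of the 8 in NIH3T3 cells, above that of 91.5% of all genes. In estimated counts, 56.0 in mESCs faced 7565 in NIH3T3 cells, a ratio of 124 after scaling to library size (95% exact conditional interval 95.1 to 164). Pdgfrb stood at 0.54 and 39.6 TPM, with 63 and 4934 counts and a ratio of 71.7 (55.9 to 93.4). Both receptors of the platelet-derived growth factors were thus below 1 TPM in mESCs and high in NIH3T3 cells, where Pdgfrb was above 89.4% of genes.

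Met, on chr6:17463349-17573980, stood at 0.58 TPM in mESCs and 30.9 TPM in NIH3T3 cells, with 115 and 4394 counts and a ratio of 35.0 (29.1 to 42.5). Its mESC level was that of Met-207, a transcript of 683 bases with 5.53 counts. Igf1r, on chr7:67952257-68233668, was at 4.24 TPM in mESCs and 22.2 TPM in NIH3T3 cells, with 1049 and 5916 counts and a ratio of 5.16 (4.83 to 5.52). Igf1r therefore had the smallest difference of the 4 called members and was the only one of them above 1 TPM in mESCs. Its 1 full-length transcript, Igf1r-201 with 1369 residues, carried 86.1% of the gene's TPM in mESCs and 87.7% in NIH3T3 cells.

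Kit, on chr5:75574987-75656722, was at 5.51 TPM in mESCs with 1022 counts, and was listed at 0 with 0 counts in NIH3T3 cells. Set against the floor of 3 counts that a count of 0 allows, Kit was at least 372-fold higher in mESCs. Egfr, on chr11:16752203-16913907, was also lower in NIH3T3 cells, at 1.09 TPM in mESCs and 0.15 TPM in NIH3T3 cells, with 257 and 30 counts and a ratio of 9.36 in favour of mESCs (6.40 to 14.2). Egfr was a low transcript in both lines, and on the log2(TPM + 1) scale its difference was -0.86, within the 4-fold limit. On a pseudocount of 0.1, or in estimated counts scaled to library size, it passed that limit, at -2.27 and -2.40. In mESCs a short form, Egfr-202 with 655 residues against 1210 in the full-length Egfr-201, was given 0.79 TPM from 44.8 counts.

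Fgfr1, on chr8:25518759-25575718, had the highest listed level of the 8 in mESCs, at 9.53 TPM, and stood at 23.6 TPM in NIH3T3 cells. The mESC value came from Fgfr1-217, a processed transcript of 381 bases with 34.4 counts, and the leading protein-coding form, Fgfr1-202, was at 8.95 TPM there. Over all transcripts Fgfr1 had 1468 counts in mESCs and 4684 in NIH3T3 cells, a ratio of 2.92 (2.75 to 3.10). Fgfr2, on chr7:130162451-130266808, stood at 0.92 TPM in mESCs and 4.91 TPM in NIH3T3 cells. Its mESC value rested on 2.48 counts of a 335-base retained-intron transcript, and over all transcripts the gene had 56.5 counts in mESCs and 1569 in NIH3T3 cells, a ratio of 25.2 (19.3 to 33.4). The log2 difference of Fgfr2 was 1.62, within the 4-fold limit, and passed it at 3.16 with TPM summed over transcripts, at 2.29 with a pseudocount of 0.1 and at 4.14 in estimated counts scaled to library size.

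**Figure D1:**
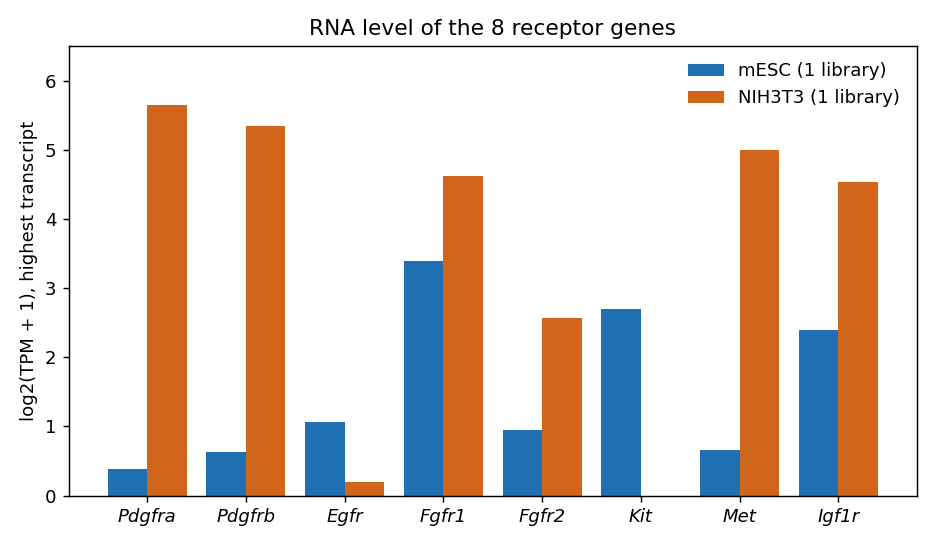
RNA level of each receptor gene as log2(TPM + 1) of its highest transcript, in 1 mESC library (blue bars) and 1 NIH3T3 library (orange bars), with no error bars since there is no replicate. Pdgfra, Pdgfrb and Met are below 1 TPM in mESCs and above 30 TPM in NIH3T3 cells, while Kit has a bar in mESCs alone.

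In order of listed level, the mESC library ran from Fgfr1 through Kit, Igf1r, Egfr, Fgfr2, Met and Pdgfrb down to Pdgfra, and the NIH3T3 library from Pdgfra through Pdgfrb, Met, Fgfr1, Igf1r, Fgfr2 and Egfr down to Kit. Without replicates it cannot be said which neighbours in these orders differ beyond their spread. With TPM summed over transcripts the ends of the orders changed, Pdgfrb being lowest in mESCs at 0.54 TPM (Pdgfra 0.64) and Fgfr1 highest in NIH3T3 cells at 68.0 TPM (Pdgfra 64.0).

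The choice of Fgfr1 and Fgfr2 exons was compared between the lines. The first Ig loop of Fgfr1 is encoded by a 267-base exon at chr8:25555508-25555774. Forms that keep it have 3 loops and forms that skip it have 2, and the 2-loop form is known to bind its ligands and heparan sulfate more tightly. Among protein-coding transcripts that keep or skip it, those that keep it held 80.6% of the TPM in mESCs and 28.3% in NIH3T3 cells. In estimated counts over all transcripts the shares were 82.7% (95% exact interval 80.4 to 84.9) and 33.1% (31.6 to 34.6). Fgfr1-202, with the exon and 820 residues, was at 8.95 TPM in mESCs and 8.98 TPM in NIH3T3 cells. Fgfr1-203, without the exon and with 733 residues, was at 0.57 TPM in mESCs and 23.6 TPM in NIH3T3 cells. Fgfr1-202 was thus nearly level between the lines. Fgfr1-201, which also keeps the exon, was at 1.40 TPM in mESCs and 3.77 TPM in NIH3T3 cells. Together the protein-coding forms that keep the exon had 10.4 and 12.7 TPM, and those that skip it 2.49 and 32.3 TPM. Most of the extra Fgfr1 RNA of NIH3T3 cells was thus in forms that lack the first loop. When the short Fgfr1-217 was counted in as a skipping form, the mESC share in TPM was 46.3%. The exon is shown on the plus strand of mm10, with its bases in capitals and 10 intron bases on each side in lower case.
Fgfr1 Ig loop 1 exon: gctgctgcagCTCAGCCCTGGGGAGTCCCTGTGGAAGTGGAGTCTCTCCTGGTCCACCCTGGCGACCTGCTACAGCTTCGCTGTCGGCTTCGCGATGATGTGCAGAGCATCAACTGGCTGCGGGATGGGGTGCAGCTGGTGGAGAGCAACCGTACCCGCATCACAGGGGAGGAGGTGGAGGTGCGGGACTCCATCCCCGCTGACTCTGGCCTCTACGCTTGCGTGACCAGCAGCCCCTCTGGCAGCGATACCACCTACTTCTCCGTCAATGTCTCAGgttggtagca

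The third Ig loop ends in 1 of 2 mutually exclusive exons, IIIb or IIIc, and this choice is known to set ligand preference, with IIIb forms typical of epithelia and IIIc forms of mesenchyme. Fgfr1 used IIIc mostly in both lines. Among protein-coding transcripts IIIc held 85.0% of the TPM in mESCs and 80.7% in NIH3T3 cells. In estimated counts of these transcripts, 989 were IIIc and 116 IIIb in mESCs (interval of the IIIc count share 87.5 to 91.2%). In NIH3T3 cells 3350 were IIIc and 562 IIIb (84.5 to 86.7%), and these intervals did not overlap. Over the estimated counts of all transcripts the order was the opposite, at 81.5% in mESCs (79.3 to 83.5) and 82.7% in NIH3T3 cells (81.6 to 83.9), and the intervals overlapped, so no direction is given. For Fgfr2, all 28.9 counts assigned to either exon in mESCs were IIIc (88.1 to 100%), and in NIH3T3 cells 580 counts were IIIc and 444 were IIIb, or 56.7% IIIc (53.5 to 59.7). In TPM the IIIc share of Fgfr2 in NIH3T3 cells was 63.7%. All of the IIIb signal came from 1 transcript, Fgfr2-211 with 726 residues, which was the highest Fgfr2 transcript of that library at 4.91 TPM and was at 0 in mESCs. Its IIIc counterpart Fgfr2-207, with 723 residues, was at 3.18 TPM. The share of Fgfr2 counts with its own first-loop exon was 33.4% in mESCs (20.8 to 47.9) and 38.4% in NIH3T3 cells (35.9 to 41.0), and these intervals overlapped. kallisto divides reads between transcripts that share most of their sequence, so these shares are estimates. The IIIb exon (148 bases, chr7:130199758-130199905), which set this NIH3T3 transcript apart, is shown on the minus strand of mm10, the gene's own, with the exon in capitals and 10 intron bases on each side in lower case.
Fgfr2 IIIb exon: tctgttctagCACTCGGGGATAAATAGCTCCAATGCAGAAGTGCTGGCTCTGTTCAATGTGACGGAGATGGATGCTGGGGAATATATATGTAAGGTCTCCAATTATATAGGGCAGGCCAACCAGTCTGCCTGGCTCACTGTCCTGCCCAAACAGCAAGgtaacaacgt

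Kit was split between a pair of forms that differ by 12 coding bases. These bases lie at the end of an exon at chr5:75639147-75639158 and encode the GNNK residues beside the membrane, and the forms are known as GNNK+ and GNNK-. Kit-201, with the stretch and 979 residues, was at 4.35 TPM in mESCs, and Kit-204, without it and with 975 residues, at 5.51 TPM. The form with the stretch thus held 44.2% of their TPM, and 44.0% of their counts (40.9 to 47.1). The form with the longer protein was the minor one in this library. Its transcript was the shorter of the pair, at 5214 bases against 5241. The forms therefore also differ outside the 12 bases, and the estimated split may rest on those other bases too. The 12 bases are in capitals below, with 20 bases of mm10 on each side.
Kit 12-base stretch: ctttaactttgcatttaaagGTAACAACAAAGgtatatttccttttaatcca

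**Figure D2:**
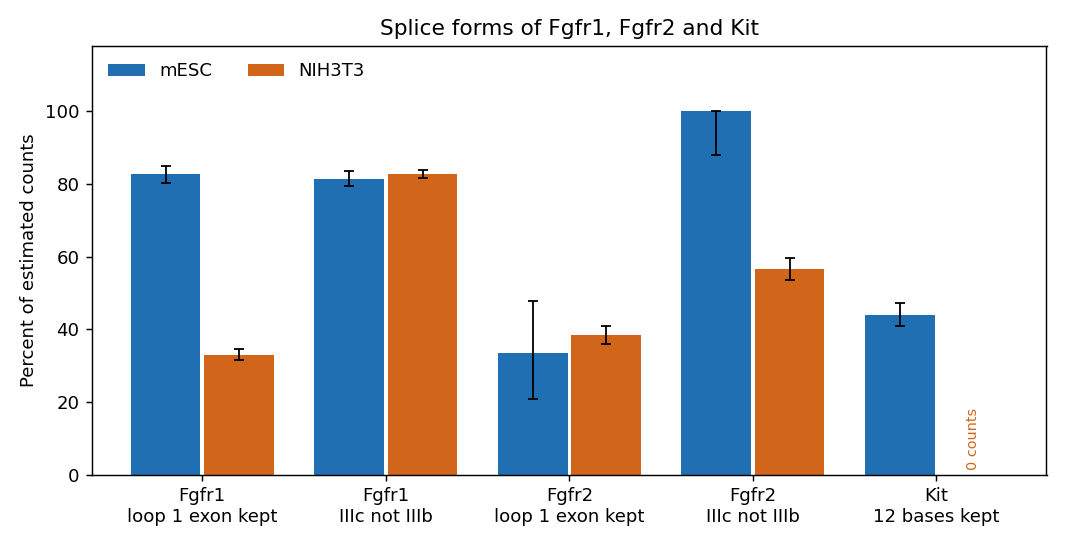
Percent of estimated counts in the named splice form in mESCs (blue) and NIH3T3 cells (orange), with 95% exact binomial intervals that cover counting error only. The share of Fgfr1 with the loop 1 exon is 82.7% in mESCs and 33.1% in NIH3T3 cells, and Kit has 0 counts in NIH3T3 cells.

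In mESCs the chromatin of the 8 genes carried few peaks. Each gene was taken with 5 kb on each side, 963.6 kb in all. Of 44748 mESC Ctr9 peaks 1 lay in these regions, at Fgfr1, so 1 of 8 members had a Ctr9 peak against 46% of all genes, 45.4% of genes at least as long as the shortest member, and 50% of genes whose mESC level was in the members' range. Of 19417 mESC H3K27ac peaks 2 lay there, both at Igf1r, so 1 of 8 members had one against 44.8% of all genes, 56.6% of genes of that length and 48% of genes of that mESC level. Within 1 kb of the start, 1 of 8 members had H3K27ac against 33.3% of genes. None of the 8 had a peak of NELFA, RNAPII Ser5p or RNAPII Ser2p, where 10.8%, 13.3% and 7.31% of all genes had one. These 3 lists were short, with 1980, 4490 and 1675 peaks.

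In NIH3T3 cells 7 of the 8 genes, all but Kit, had an H3K27ac peak, against 56.4% of all genes and 67.7% of genes of at least that length. At the start (within 1 kb) 6 of 8 had one against 46.3%, and Egfr and Kit did not. Ctr9 peaks lay at Pdgfra, Pdgfrb, Fgfr1 and Igf1r, 4 of 8 against 26.9% of all genes and 29.5% of genes of that length. Among genes at 20 TPM or more in NIH3T3 cells, 64.5% had a Ctr9 peak, and of the 5 members at that level 4 did, Met being the exception. In all, the NIH3T3 lists had 50 Ctr9 and 46 H3K27ac peaks at the 8 genes.

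**Figure D3:**
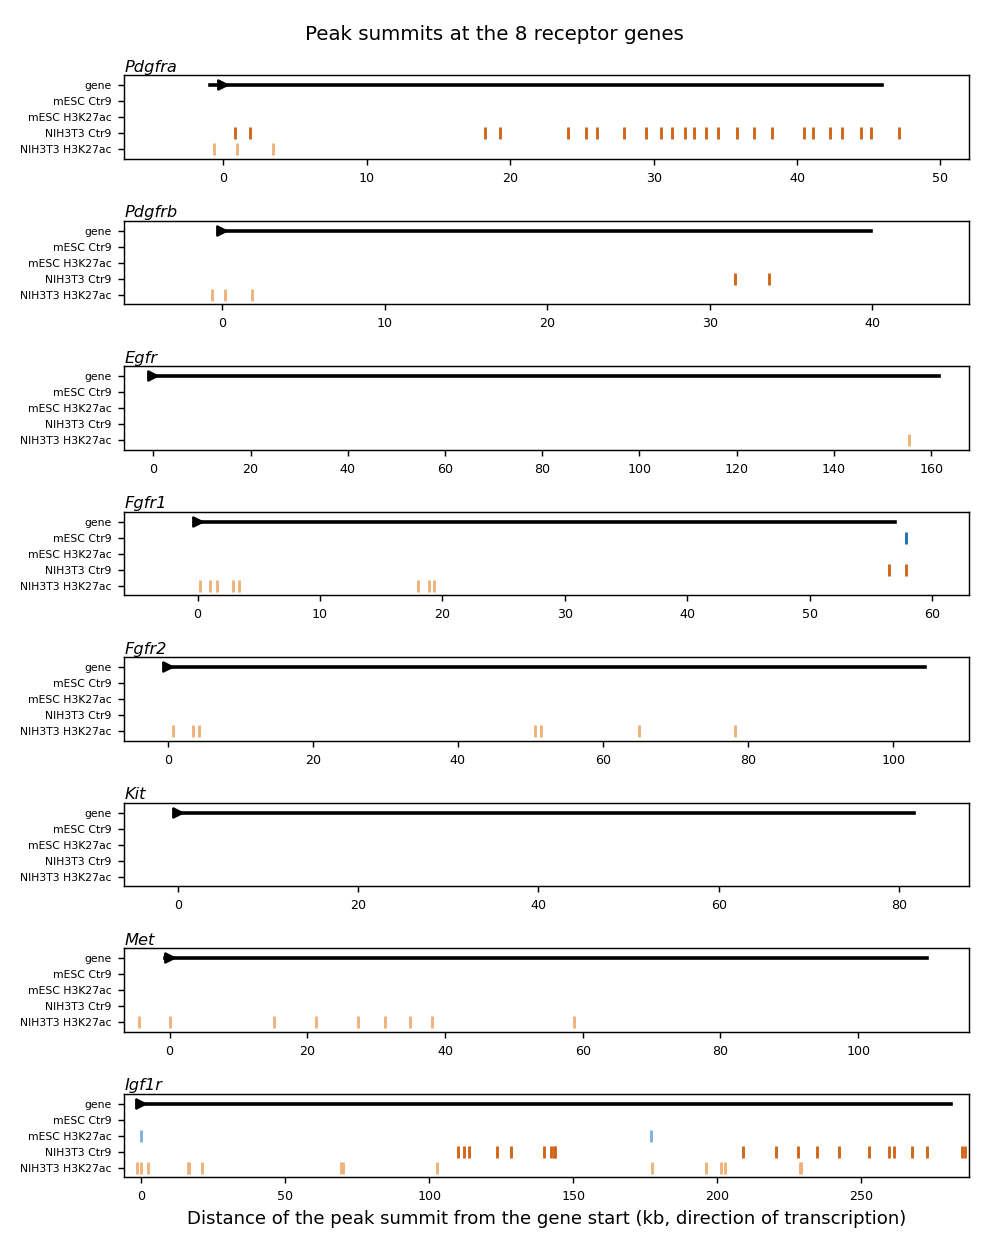
Peak summits at each receptor gene, plotted by distance in kb from the gene start in the direction of transcription, for the Ctr9 and H3K27ac lists of both lines. The black line is the gene body and each tick is 1 summit; Pdgfra and Igf1r carry 25 and 21 NIH3T3 Ctr9 summits and Kit carries none in any row.

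Pdgfra had the densest Ctr9 of the 8 genes in NIH3T3 cells, with 25 peaks that covered 12.6 kb or 22.1% of its region. Their fold enrichment over input ran from 2.54 to 5.73 with a median of 4.58. The first peak lay 0.83 kb past the start, and the summits ran on to 47.1 kb, just past the end of the gene, with a median position at 70.0% of the gene body. Of the 25 summits 16 were intronic, 3 in coding exons, 5 in UTR exons and 1 downstream. H3K27ac at Pdgfra was confined to its 5′ end, with 3 peaks between -0.63 and 3.43 kb from the start and a strongest fold enrichment of 20.9 over chr5:75152269-75155307, a peak of 3039 bases. The first 2 Ctr9 peaks overlapped H3K27ac and the other 23 did not. None of the mESC lists had a peak at the gene. Around its start, Pdgfra had 5 CpG in the 300 bases from 250 before to 50 after the start (RefSeq, GRCm38.p6). That was more than 38.3% of promoters had, and the median promoter had 7. These 300 bases held no GC box (GGGCGG on either strand), which 35.9% of 27025 promoters hold. The 250 bases before the start are shown because the H3K27ac peaks lie on both sides of them, at chr5:75152001-75152250 on the plus strand.
Pdgfra upstream: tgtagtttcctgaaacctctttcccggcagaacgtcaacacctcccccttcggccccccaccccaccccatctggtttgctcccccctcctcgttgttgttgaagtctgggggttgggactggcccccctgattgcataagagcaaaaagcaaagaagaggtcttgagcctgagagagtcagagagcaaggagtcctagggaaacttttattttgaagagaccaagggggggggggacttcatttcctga

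Kit is the neighbour of Pdgfra on the same chromosome and strand, and the interval between their regions, chr5:75203207-75569986 (366.8 kb), held 0 peaks of all 7 lists. Kit itself had no peak in any list, including the mESC lists, although its RNA was present in mESCs. Its window of 300 bases held 20 CpG and 1 GC box. The bases from 250 before the start up to the first annotated exon, chr5:75574737-75574915, are shown on the plus strand beside those of Pdgfra, with the GC box in capitals.
Kit upstream: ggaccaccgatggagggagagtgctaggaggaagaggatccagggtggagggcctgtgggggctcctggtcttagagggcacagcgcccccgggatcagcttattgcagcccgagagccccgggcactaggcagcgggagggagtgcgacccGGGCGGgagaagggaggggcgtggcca

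Igf1r was the only member with H3K27ac in both lines. At its start the mESC peak had a fold enrichment of 7.47 and a summit at -129 bases from the start, and the NIH3T3 peak had one of 18.6 and a summit at -131 bases, so that the summits were 2 bases apart. The mESC peak spanned 325 bases and the NIH3T3 peak 2163. The H3K27ac lists also differed as a whole. Their median fold enrichment was 3.97 in mESCs and 6.75 in NIH3T3 cells, and their median width 412 and 484 bases. Enrichment and width therefore cannot be compared directly between the lines. The other mESC peak lay in an intron 177 kb into the gene, at a fold enrichment of 3.11, and overlapped an NIH3T3 peak of 4.90 with summits 112 bases apart. Igf1r had 15 H3K27ac peaks in NIH3T3 cells, and the strongest was intronic, 70.1 kb from the start, at 19.4. It also had 21 NIH3T3 Ctr9 peaks, from 110 to 286 kb past the start and with fold enrichments of 2.98 to 5.36. None lay in the first 39.1% of the gene, none overlapped H3K27ac, and the last 2 lay within the neighbouring gene Pgpep1l. The promoter of Igf1r had 48 CpG in its 300 bases, more than 98.8% of promoters, and 2 GC boxes, shown in capitals in the 250 bases before the start, chr7:67952007-67952256. These bases hold both summits. The intronic site shared by the lines follows, chr7:68129397-68129549, with capitals from the mESC summit to the NIH3T3 summit.
Igf1r upstream: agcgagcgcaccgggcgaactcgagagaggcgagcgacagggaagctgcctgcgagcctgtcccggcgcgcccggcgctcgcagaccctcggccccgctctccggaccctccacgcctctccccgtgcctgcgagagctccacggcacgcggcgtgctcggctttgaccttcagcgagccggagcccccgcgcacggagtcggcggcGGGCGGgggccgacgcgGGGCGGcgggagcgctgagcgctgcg
Igf1r intronic H3K27ac site: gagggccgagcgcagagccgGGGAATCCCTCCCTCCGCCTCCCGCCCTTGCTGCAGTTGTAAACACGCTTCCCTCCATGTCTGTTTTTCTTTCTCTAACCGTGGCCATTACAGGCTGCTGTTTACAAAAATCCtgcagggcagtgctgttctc

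Fgfr1 was the only member with Ctr9 in both lines, and both signals lay at its 3′ end. The mESC peak, chr8:25576398-25577733, had a fold enrichment of 4.78 and a summit 57.8 kb from the start, past the end of the gene. It overlapped 1 of the 2 NIH3T3 Ctr9 peaks, at 3.85, with summits 39 bases apart. The other NIH3T3 peak lay in the last exon at 4.17. H3K27ac at Fgfr1 was called in NIH3T3 cells alone, with 8 peaks in the first 19.3 kb. Its strongest peak, chr8:25537523-25537856, was intronic, 18.9 kb from the start, with a fold enrichment of 24.0, against 8.95 for the peak nearest to the start. This was the strongest peak of any member in any list.

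Met and Fgfr2 had H3K27ac without Ctr9 in NIH3T3 cells. Met, at 30.9 TPM, had 9 H3K27ac peaks from -4.37 to 58.8 kb, and the strongest, at 13.2, lay 93 bases from its start. Its 300-base promoter window held 34 CpG and 3 GC boxes. Fgfr2 had 7 H3K27ac peaks from 0.74 to 78.1 kb, and its strongest lay 3.45 kb into the gene at 13.0. Egfr, low in both lines, had a single H3K27ac peak, deep in an intron 155 kb from the start, at 7.99, and its window of 300 bases held 15 CpG and 1 GC box. None of the 6 members with a promoter entry held a TATA box (TATAAA on either strand), which 14.2% of promoters hold, and Fgfr2 and Met held an E-box (CACGTG, the same on both strands), which 7.24% hold. Pdgfrb and Fgfr1 were without an entry.

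Pdgfrb resembled Pdgfra in RNA more than in Ctr9. In NIH3T3 cells it had 2 Ctr9 peaks, both intronic, 31.5 and 33.6 kb past the start, at 4.78 and 4.58, where Pdgfra had 25. Ctr9 covered 1.54% of the Pdgfrb region and 22.1% of the Pdgfra region, while their RNA levels were 39.6 and 49.1 TPM. H3K27ac lay at the start of both genes, at Pdgfrb with 3 peaks from -0.62 to 1.85 kb and a strongest enrichment of 12.4. Over the members, the 46 NIH3T3 Ctr9 summits inside the gene bodies had a median position of 74.0% of the body, against 67.6% for all 7796 such summits in genes of at least that length, and the 42 H3K27ac summits one of 24.8%, against 27%. Pdgfra and Igf1r had 25 and 21 of the 50 Ctr9 peaks, so the Ctr9 median mainly describes those genes. Of the 50 NIH3T3 Ctr9 peaks at members 2 overlapped H3K27ac, both at Pdgfra. The share over all NIH3T3 Ctr9 peaks was not computed. It is therefore unknown whether this overlap, or that given above for Pdgfra and Igf1r, is unusual.

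Ligand genes of these receptors were called in both directions. Of 33 ligand genes, 5 were called higher in NIH3T3 cells, 4 higher in mESCs and 24 neither. Among all genes the shares called were 5.1% and 5.46%. The median log2 difference (NIH3T3 minus mESC) of the ligand genes was -0.03. The 5 higher in NIH3T3 cells were Fgf7 (0.10 TPM in mESCs, 168 in NIH3T3 cells), a ligand of the IIIb form of Fgfr2, Kitl (0.98 and 61.0), which is stem cell factor, Hgf (0 and 47.8), the ligand of Met, Ereg (0 and 31.9), a ligand of Egfr, and Igf2 (0.72 and 12.8). The 4 higher in mESCs were Fgf4 (146 and 0), which signals in the early embryo, Pdgfa (44.2 and 9.49), a ligand of Pdgfra, Fgf17 (17.1 and 0.05) and Fgf15 (5.03 and 0).

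Kitl was high in NIH3T3 cells, where Kit had 0 counts, and was at 0.98 TPM in mESCs, where Kit was at 5.51 TPM. Hgf and Met were both high in NIH3T3 cells, and Hgf had 0 counts in mESCs. Pdgfa was higher in mESCs, where its receptor Pdgfra was at 0.31 TPM, while Pdgfc, another ligand of Pdgfra, was at 20.6 TPM in mESCs and 46.7 TPM in NIH3T3 cells. Fgf4 was at 146 TPM in mESCs, where Fgfr1 was the leading receptor of its family, Fgfr2, Fgfr3 and Fgfr4 being at 0.92, 1.01 and 1.28 TPM. Igf1 was low in both lines, at 0.02 and 2.19 TPM.

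In NIH3T3 cells Hgf had 14 Ctr9 peaks, Fgf7 5 and Ereg 4, and Kitl, like Met, had none at 61.0 TPM although it had 3 H3K27ac peaks. In mESCs Pdgfa had 17 Ctr9 peaks, Hbegf 14, Fgf17 5 and Fgf4 4. Fgf4 and Fgf17 also had peaks of H3K27ac, NELFA, RNAPII Ser5p and RNAPII Ser2p in mESCs, lists in which the receptors had none but the 2 H3K27ac peaks of Igf1r.

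Of 50 other receptor tyrosine kinases 2 were called higher in NIH3T3 cells, 3 higher in mESCs and 45 neither. Of all genes 5.1% were called higher in NIH3T3 cells and 5.46% in mESCs, so these kinases were near the general share. Their median log2 difference was -0.06. Axl, the receptor of Gas6, was at 0.74 TPM in mESCs and 242 TPM in NIH3T3 cells, and Ddr2, a collagen receptor, at 0.47 and 43.2 TPM. Like Pdgfra, they carried many Ctr9 peaks in NIH3T3 cells, 14 each, but Axl had 15 and Ddr2 12 H3K27ac peaks where Pdgfra had 3. Higher in mESCs were Tyro3 (30.3 and 6.32 TPM), of the Axl family, the ephrin receptor Epha4 (24.2 and 4.66) and Erbb3 (10.2 and 0.07), of the Egfr family. Insr, close to Igf1r, was at 2.95 and 7.55 TPM, and Csf1r, close to Kit and the Pdgf receptors, at 0 and 2.37. In mESCs 21 of these 50 genes had a Ctr9 peak and 23 an H3K27ac peak, where 1 and 1 of the 8 members did. Among all genes the shares were 46% and 44.8%.

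Of 26 adaptors and effectors 3 were called higher in NIH3T3 cells, 1 higher in mESCs and 22 neither, where 5.1% and 5.46% of all genes were called. Their median log2 difference was 0.08. Grb10, an adaptor that restrains Igf1r signalling, was at 48.0 TPM in mESCs and 260 TPM in NIH3T3 cells, Pik3r1, the regulatory subunit of PI3K, at 3.01 and 21.4, and Irs1, the substrate of Igf1r, at 0.21 and 7.74. Gab1, a docking protein downstream of Met, went the other way, at 97.9 TPM in mESCs and 3.11 in NIH3T3 cells, and had 67 mESC Ctr9 peaks and none in NIH3T3 cells. Of 8 co-receptors and inhibitors 1 was called, Errfi1, an inhibitor of Egfr, at 4.54 and 46.0 TPM.

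**Figure D4:**
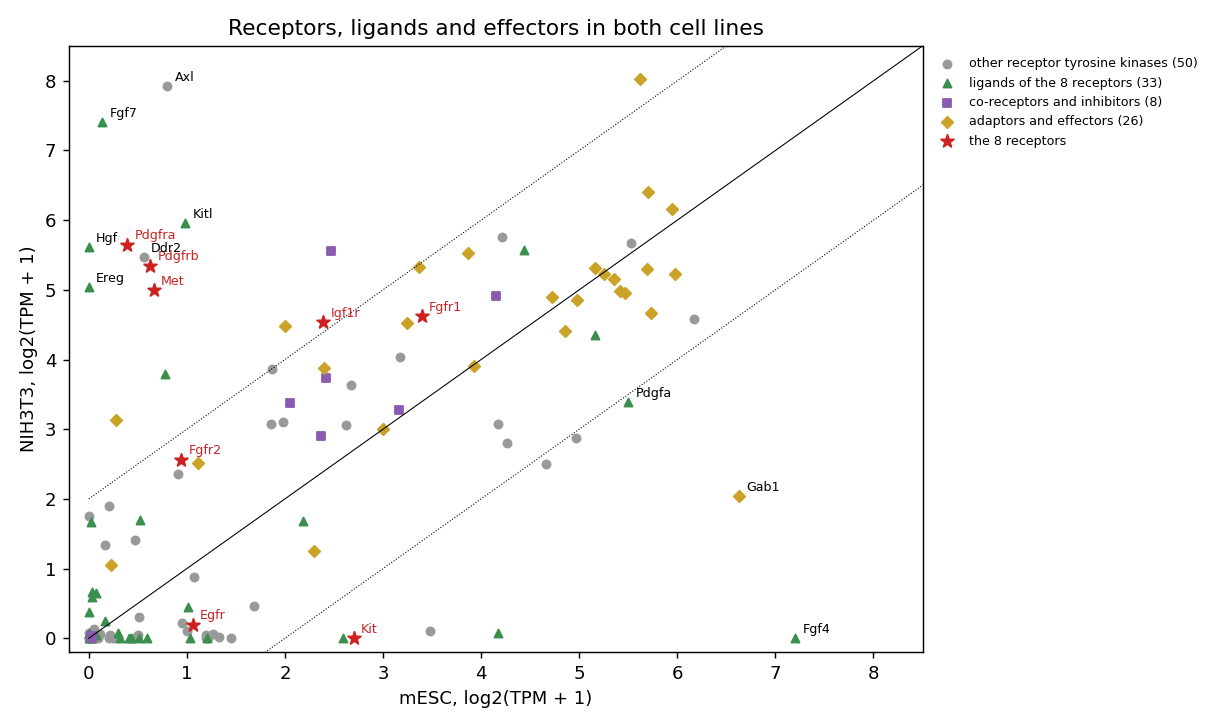
Level of each gene as log2(TPM + 1) in the mESC library (x axis) and the NIH3T3 library (y axis), for the 8 receptors (red stars) and 4 gene lists. The solid line is equality and the dotted lines mark the 4-fold limit; Pdgfra, Pdgfrb and Met lie far above it with Fgf7, Hgf, Kitl and Axl, and Kit and Fgf4 lie on the x axis.

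Markers of the primitive endoderm, in which Pdgfra is known as a marker, were read in both lines. Of 6 such genes 2 were above 1 TPM in mESCs, Sox7 at 6.04 and Gata4 at 2.21 TPM, and Sox17 was at 0.15. Their sum was 9.45 TPM. In NIH3T3 cells 3 of the 6 were above 1 TPM, Dab2 at 24.2, Gata4 at 2.85 and Gata6 at 1.51 TPM, Sox17 was at 0, and the sum was 28.5 TPM. Markers of endothelium, the lineage of Tek and Cdh5, summed to 1.80 TPM in mESCs and 0.07 TPM in NIH3T3 cells. Their part in the receptor levels was not tested, and in bulk libraries fewer cells of a type and less RNA per cell cannot be told apart.

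The genes most like each member were those with the same presence over the 7 lists and the smallest distance in log2(TPM + 1) over the 2 libraries. For Pdgfra they were Tgfbr3, Emilin2 and Cavin3, at distances of 0.04 to 0.15, out of 345 genes with the same lists. For Pdgfrb they were Steap3, Nsg1 and Cavin3, at 0.17 to 0.24. For Fgfr1 they were Tgfb1, Snn and Uhrf2, at 0.13 to 0.31, out of 438, and for Igf1r Tcf12, Arhgap28 and Zfp637, at 0.03 to 0.15, out of 220. For Met they were Tmem176b, Hmgn3 and Antxr1 and for Fgfr2 Ece2, Elf4 and Tle2, all from the 1711 other genes with NIH3T3 H3K27ac alone. For Kit they were Tgtp1, Dpysl5 and Fgd5, at 5.55, 5.39 and 5.66 TPM in mESCs and 0 in NIH3T3 cells, from 7166 genes with no peak in any list.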

How the data were processed

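The 8 members, the gene lists and the alternatives were chosen with earlier results of these data known. RNA-seq reads were quantified by the authors with kallisto 0.46.1 against GENCODE M19, and the deposited tables give estimated counts and TPM per transcript. ChIP-seq reads were aligned by the authors to mm10 with Bowtie2 2.3.5.1, reads in regions of the ENCODE blacklist were removed, and peaks were called per library with MACS2 2.2.6 (q of 0.01). The deposited lists give fold enrichment over input, −log10 p-values and q-values, and a score. Each group was 1 library. No column of per-sample values was left unused for want of a sample.

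From these files a gene's TPM was that of its highest transcript, as in the study, and log2(TPM + 1) was compared between the libraries with a limit of 4-fold. A peak was assigned where it overlapped a RefSeq gene body (GRCm38.p6) or 5 kb on either side by at least 1 base. Transcript structures were read from GENCODE M21, which held all 83 transcripts of the members. Count ratios and shares have exact 95% binomial intervals on rounded estimated counts. Promoter sequences were found for 6 of the 8 members. The sequence of 1 further exon and the genes nearest to Egfr are not reported here. Named genes were the members, listed genes past the 4-fold limit (at most 8 per list), ligands of the receptors described, and for each member up to 3 genes of the same peak pattern nearest in level. Insr, Csf1r, Fgfr3, Fgfr4 and Pgpep1l were named after their values were seen. Interval counts and fold calls were checked on simulated data. Python 3.11.15, pandas 2.3.3, NumPy 2.4.6, SciPy 1.17.1, Matplotlib 3.10.9 and Biopython 1.88 were used.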

Additional observations from a re-analysis of the deposited data

How the results depend on the processing

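With 1 library per group no replicate could be left out, so the direction of each difference rests on 2 libraries. No paired analysis was possible because each group had 1 library and no comparison came from a test. The count of members higher in NIH3T3 cells was 4 to 6 under each alternative. It was 5 with TPM summed over transcripts (5.80% of all genes called), a pseudocount of 0.1 (8.40%) or estimated counts (6.52%), where Fgfr2 joined. At a 2-fold limit it was 6, where Fgfr1 joined too, against 11.5% of all genes. The count higher in mESCs was 2 with a pseudocount of 0.1 and 2 in estimated counts scaled to library size, where Egfr joined Kit. Of all genes 11.9% and 7.36% were called higher in mESCs by these rules. Over gene bodies alone, 0 members had a mESC Ctr9 peak. With the GENCODE M21 body of Fgfr2, an alternative added after seeing the data, 1 transcript stretches the gene to 2961 kb and over 29 other genes. There the counts were 2 for mESC Ctr9, 2 for mESC H3K27ac, and 1 each for NELFA, RNAPII Ser5p and RNAPII Ser2p, Fgfr2 being the addition. The other 39 of 47 recomputed counts stayed within 1.5 times. None of 40 recomputed log2 differences changed the direction of a called member, and 20 moved by more than their counting interval, all with TPM summed over transcripts, a pseudocount of 0.1 or estimated counts. Part of these outcomes was fixed in advance. A count of 0 stays at 0 under a stricter q-value or a narrower region. A filter on TPM of at least 1 left each log2 difference as it was, and a pseudocount cannot change a direction. The tallies therefore do not measure how firm the results are. Of 18 recomputed exon shares, also added after seeing the data, 10 moved by more than their counting interval. Low counts limit Fgfr2, Pdgfra and Pdgfrb in mESCs, at 56.5, 56.0 and 63, and Egfr in NIH3T3 cells, at 30. They also limit the listed mESC level of Met. The unknown ChIP depth limits every absent peak.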
